A study of Mus musculus with 35 samples.

Results

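Matrix proteases and their tissue inhibitors were followed as 9 genes of the deposited table, chosen by symbol: the inhibitors Timp1, Timp2 and Timp3 and the matrix metalloproteinases Mmp2, Mmp3, Mmp11, Mmp12, Mmp14 and Mmp15. They are 9 of 57186 genes in the table, and all 9 had enough reads to be tested, with at least 19 reads for each in every library. RNA came from whole mouse lung, in 35 libraries and 12 groups. Lungs were untreated or taken after naphthalene, under the day labels 2, 5 and 7, from control mice (RORaf/f) or KO mice (RORaf/fIl7riCre). Each group held 3 libraries, apart from KO lungs at day 7 after naphthalene with 2. Naphthalene is converted to toxic products in club cells, the secretory cells of the airway, and injures them. Both genotypes carry the floxed Rora allele, and the Cre in KO mice is driven from the Il7r locus, so it acts in cells that express Il7r or descend from such cells. No Cre is named for control mice, so loss of RORa and presence of the Cre cannot be told apart. The design text puts the mice at 14 days old and does not say how old the untreated mice of days 2, 5 and 7 were. Nothing in the labels ties a library to a mouse or litter, so p-values measure the spread between these libraries, which may be technical.

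Matrix metalloproteinases are zinc-dependent enzymes that are made as inactive precursors and cut collagens, elastin, laminins and many cell-surface and signalling proteins once the propeptide is removed. TIMPs bind the active site of the mature enzymes and block them, and TIMP2 also takes part in the activation of pro-MMP2 at the cell surface by the membrane-anchored MMP14. In the lung these enzymes and inhibitors act in alveolar development and in the remodelling of the matrix after injury. Transcript levels do not show how much of an enzyme is active, since activation and inhibition take place on the protein.

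The sequence just upstream of the start site was taken from RefSeq (GRCm38.p6) for 8 of the 9 genes; Mmp2 had no entry. The windows shown are the 250 bases before the start site of the inhibitor that rose after naphthalene, of Mmp14, the member called in the most comparisons of untreated lungs, and of the proteases Mmp3 and Mmp12. Capitals mark matches, on either strand, to TGANTCA (a pattern that includes the site of AP-1 factors), GGGCGG (the GC box) or TATAAA (the TATA box). Sequences run 5′ to 3′ along the gene.
Timp1 chrX:20869916-20870165 (+): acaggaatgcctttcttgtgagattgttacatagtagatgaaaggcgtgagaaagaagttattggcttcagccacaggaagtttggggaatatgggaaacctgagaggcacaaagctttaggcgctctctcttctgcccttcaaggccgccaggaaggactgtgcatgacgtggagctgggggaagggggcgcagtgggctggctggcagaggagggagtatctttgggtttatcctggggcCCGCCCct
Mmp14 chr14:54431348-54431597 (+): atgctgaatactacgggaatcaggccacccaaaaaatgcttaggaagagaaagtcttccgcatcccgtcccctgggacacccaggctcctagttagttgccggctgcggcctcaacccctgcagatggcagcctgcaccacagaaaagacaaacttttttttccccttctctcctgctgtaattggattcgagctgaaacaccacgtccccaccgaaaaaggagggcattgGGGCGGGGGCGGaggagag
Mmp3 chr9:7445572-7445821 (+): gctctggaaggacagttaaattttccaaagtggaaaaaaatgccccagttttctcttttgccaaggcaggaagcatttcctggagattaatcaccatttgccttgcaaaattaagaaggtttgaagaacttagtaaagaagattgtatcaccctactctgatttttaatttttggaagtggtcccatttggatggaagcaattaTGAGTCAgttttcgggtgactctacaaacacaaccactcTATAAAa
Mmp12 chr9:7347124-7347373 (+): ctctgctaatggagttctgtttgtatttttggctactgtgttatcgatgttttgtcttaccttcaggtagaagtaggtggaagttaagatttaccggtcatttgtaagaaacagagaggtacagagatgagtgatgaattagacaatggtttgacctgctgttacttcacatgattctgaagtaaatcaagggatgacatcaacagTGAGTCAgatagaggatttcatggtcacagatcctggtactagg
The Timp1 window held 1 GC box, on the opposite strand with its first base 8 bases before the start site, and none of the other motifs. The Mmp14 window held GC boxes at 19 and 13 bases before the start site, which abut. The Mmp3 window held TGAGTCA at 46 bases and TATAAA at 7 bases before the start site. Mmp12 has 2 annotated start sites, and the window shown held TGAGTCA at 44 bases while the other window held none of the 3 motifs. Of 32851 windows of the same length, 6.75% held TGANTCA, 32.7% GGGCGG and 12.4% TATAAA. The GC box was also found before Timp2, Timp3, Mmp11 and Mmp15. A match is a description of the letters and says nothing about binding.

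Levels were set side by side per length, as counts-per-million values (CPM, with library sizes scaled by the TMM factors) divided by the kilobases of exon in the GENCODE annotation of GRCm38. Timp2 was the most abundant of the 9, with a median of 176.5 CPM per kb over the 35 libraries, and was above Mmp15 in 35 of 35. Mmp15, a membrane-anchored protease, followed at a median of 34.8 CPM per kb. Mmp2, a gelatinase that cuts denatured collagen and type IV collagen, had 26.4, Mmp11 had 21.95, Timp3 had 20.4 and Mmp14 had 15.2. Mmp2 exceeded Mmp11 in 21 of 35 libraries and Mmp11 exceeded Timp3 in 18 of 35, so the order among these 3 did not hold across libraries. Timp1 had a median of 5.64 CPM per kb and a range of 1.90 to 19.4. Mmp3, the stromelysin that also activates other precursors, had 2.73, and Mmp12, the elastase of macrophages, had 0.516. The lengths join the exons of all annotated transcripts of a gene, 1801 bases for Mmp3 and 7237 for Mmp12. With no division by length their medians were 4.92 and 3.73 CPM, so the gap between them depends on the length used. All other values in the text are CPM with no division by length, which compare libraries and not genes.

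**Figure D1:**
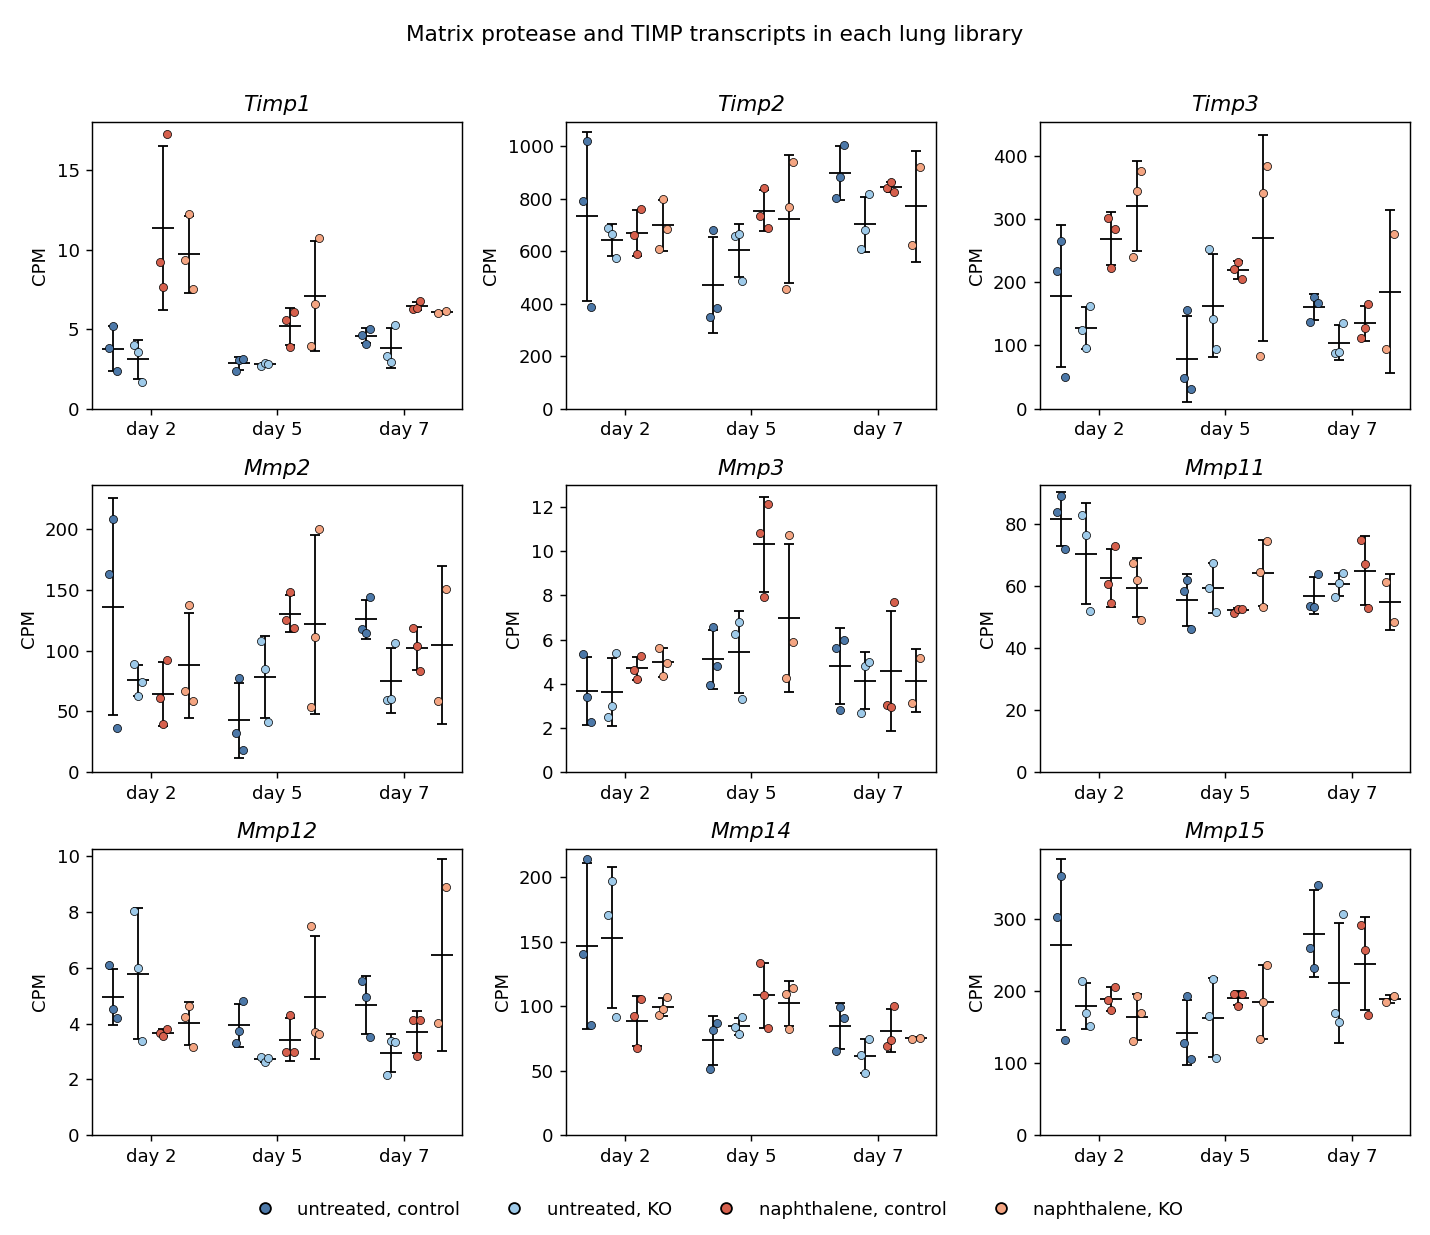
CPM (vertical axes, each starting at 0) of the 9 genes in each library, by day label, treatment and genotype; points are libraries and bars the group mean ± SD (n = 3, or 2 for KO lungs at day 7 after naphthalene). Treated Timp1 points lie above all untreated points of the same day label, while Mmp14 points are highest in 4 untreated libraries of day 2.

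Some libraries stand apart and their names carry letters that follow the groups. Totals ran from 10696690 to 21062713 counts with a median of 16159028, and after TMM scaling 1 read equals 0.0487 to 0.0886 CPM. At day 2 the naphthalene libraries share the letter a, and the untreated libraries have k (4 libraries) or n (2 libraries). At day 5 they have b or i (1 library) against f or o. All day 7 libraries share the letter p. What the letters stand for is not stated, and at days 2 and 5 treatment and letter cannot be told apart. Replicate 1 of the untreated control lungs of day 5 had a summed CPM of 1223 for 14 monocyte and interstitial macrophage genes, against 330.1 to 653 in all other libraries. Its sum for 10 microglia and brain genes was 560.9, against 142.1 to 340.1 in the others. P2ry12 reached 158.6 CPM in its group and at most 3.92 CPM in any other group. The same library was the lowest of all 35 for Timp3, Mmp2, Mmp11 and Mmp15 (31.6, 17.9, 46.1 and 106 CPM). Without this library Timp1 still passed at day 5 over both genotypes by edgeR. The untreated changes from day 5 to day 7 were then 0.51 for Timp2 and 0.59 for Mmp15. Neither passed by edgeR (adjusted p = 0.0743 and 0.0683). Why this library stands apart was not tested. Rora had 32.1 to 53.4 CPM in 18 control libraries and 25.2 to 64.0 in 17 KO libraries, so whole-lung counts do not show the deletion. Il7r had 1.75 to 12.2 CPM in control and 3.27 to 11.2 in KO libraries. Control libraries were above KO in naphthalene lungs of days 2 and 7 and in untreated lungs of days 5 and 7. In untreated lungs of day 5 they had 8.85 to 12.2 against 4.75 to 5.12 CPM. Control and KO libraries overlapped in naphthalene lungs of day 5 and untreated lungs of day 2, where KO means were higher. These means were 6.37 against 3.78 and 6.17 against 4.97 CPM. No genotype test of Il7r passed by edgeR.

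Timp1, a soluble inhibitor of most secreted metalloproteinases, was higher in every naphthalene library than in any untreated library of the same day label. At day 2 the naphthalene libraries had 9.20, 7.64 and 17.3 CPM in control lungs and 9.35, 12.3 and 7.496 CPM in KO lungs. The untreated libraries of day 2 had 3.80, 5.18 and 2.33 CPM in control lungs and 1.68, 4.02 and 3.58 CPM in KO lungs. The groups did not overlap in either genotype. For this and the other genes below, the share of all genes whose groups did not overlap is not given here. Over both genotypes the means were 10.5 ± 3.7 CPM (SD, n = 6) and 3.43 ± 1.25 CPM (n = 6), a log2 change of 1.61 ± 0.24 (SE; 3.05-fold; adjusted p = 1.54e-05, edgeR quasi-likelihood test with Benjamini-Hochberg adjustment over 20606 genes). The change was 1.59 ± 0.34 in control lungs (adjusted p = 0.00308) and 1.63 ± 0.34 in KO lungs (adjusted p = 0.00491). Without replicate 3 of the control naphthalene lungs, the highest library, the change in control lungs was 1.16 with adjusted p = 0.058.

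At day 5 the same inhibitor was still higher after naphthalene. The naphthalene libraries had 5.57, 3.88 and 6.08 CPM in control lungs and 3.92, 10.8 and 6.59 CPM in KO lungs, and the untreated libraries had 2.39 to 3.13 CPM. All 6 naphthalene libraries were above all 6 untreated ones. The log2 change over both genotypes was 1.11 ± 0.24 (2.15-fold; adjusted p = 0.0051). It was 0.86 ± 0.35 in control lungs (adjusted p = 0.134) and 1.35 ± 0.34 in KO lungs (adjusted p = 0.0385). The call in KO lungs was lost when replicate 2 or 3 of the naphthalene lungs or any of the 3 untreated lungs was left out, and without replicate 2, the highest and the only library with the letter i, the change was 0.92 (adjusted p = 0.529). In the other 4 of these fits the change was 1.34 to 1.40, about as large as with all libraries, and only the adjusted p moved (0.0882 to 0.16).

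At day 7, where every library shares a name letter, Timp1 had 5.99 to 6.76 CPM in the 5 naphthalene libraries and 2.90 to 5.26 CPM in the 6 untreated libraries. The libraries again did not overlap, and the log2 change of 0.57 ± 0.25 did not pass (adjusted p = 0.8 by edgeR). The fall of the naphthalene effect from day 2 to day 7 was 1.03 ± 0.35 on the log2 scale, with values of 1.61 at day 2 and 0.57 at day 7, and did not pass (adjusted p = 0.188). Without the 4 untreated libraries of letter k, a choice made after seeing the data, Timp1 rose by 2.44 at day 2 (adjusted p = 0.000109), and without letters n, o and i by 1.35 (adjusted p = 0.000129).

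Marker genes of several cell types also changed after naphthalene. Over both genotypes, the share of all tested genes called higher was 5.6% at day 2, 4.34% at day 5 and 0.335% at day 7. The share called lower was 4.3%, 2.82% and 0.0388%. The summed CPM of 14 basal and injury-associated epithelial genes was 498 to 831 in naphthalene libraries of day 2 and 160 to 260 in untreated ones, with 12 of 14 called higher. At day 5 the sums were 208 to 543 and 165 to 229, with 8 of 14 called higher, and at day 7 they were 207 to 298 and 157 to 256, with 2 of 14. The library with the highest Timp1 at day 2 (17.3 CPM) and the one at day 5 (10.8 CPM) also had the highest sums of their day, 831 and 543. This did not hold at day 7, where the library with the highest Timp1 (6.76 CPM) had a sum of 221 and the highest sum was 298. Nor did it hold for other libraries of day 2. The KO library with 12.3 CPM of Timp1 had a sum of 537, and the one with 7.496 CPM had 651. At day 2 neutrophil genes were called higher for 7 of 14 (sums of 196 to 694 against 115 to 417 CPM), alveolar macrophage genes for 6 of 14, with 1 lower (642 to 851 against 418 to 453), ciliated cell genes for 9 of 11 (479 to 687 against 411 to 489) and mesothelial genes for 2 of 9 (312 to 442 against 175 to 278). Alternatively activated macrophage genes were called higher for 3 of 10, with 1 lower (419 to 635 against 217 to 339), and thymus and lymphoid genes were called lower for 5 of 10 tested (206 to 369 against 416.5 to 603). Club cell genes were called lower for 5 of 10 and higher for 2 (2789 to 4498 against 8288 to 12390). The mitochondrial share of counts was 1.63 to 2.57% after naphthalene and 0.752 to 1.53% in untreated lungs of day 2. At day 5 genes called higher were 7 of 11 for ciliated cells (522 to 865 against 391 to 587), 6 of 10 for alveolar type 2 cells (18840 to 42320 against 10580 to 25530), 6 of 14 for alveolar macrophages (603 to 1135 against 449 to 554) and 4 of 9 for mesothelium (196.5 to 399.9 against 153 to 244), and 5 of 10 tested thymus and lymphoid genes were lower (186 to 354 against 371 to 672). Club cell sums were 5140 to 7148 against 10380 to 14980 at day 5 and 6684 to 12500 against 14080 to 23710 at day 7. Alternatively activated macrophage sums were 514 to 917 against 239 to 442 at day 5. At day 7 they overlapped (608 to 1048 against 329 to 652). Of the genes on these lists, Ptcra was at 0 in the untreated libraries of day 2, and no other was at 0 in all libraries of a treatment and day. The part of these cells and of the mitochondrial share in the Timp1 result was not tested, and in whole-lung RNA a change in cell number and a change in RNA per cell cannot be told apart.

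**Figure D2:**
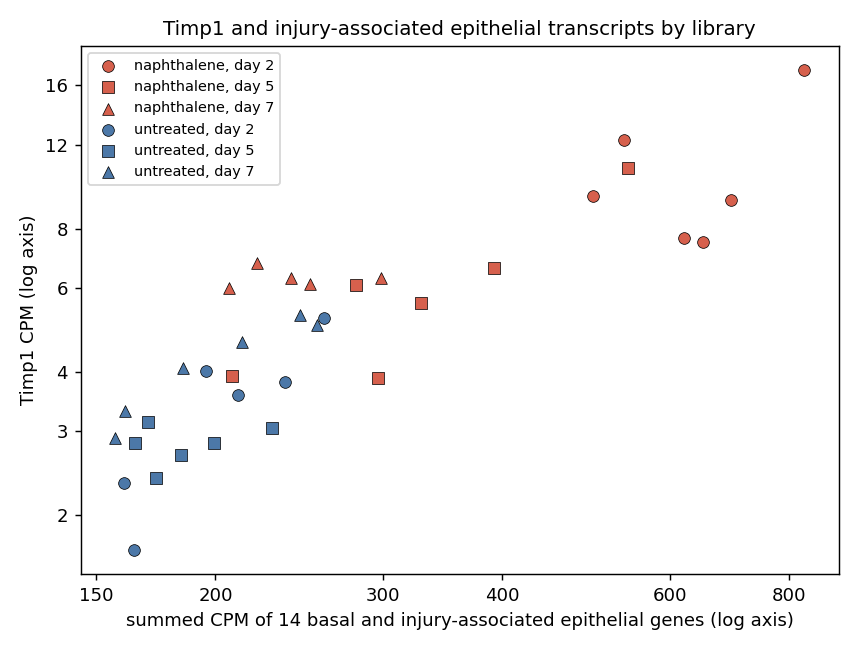
Timp1 CPM (vertical log axis) against the summed CPM of 14 basal and injury-associated epithelial genes (horizontal log axis) in 35 libraries; colour gives treatment and shape the day label. The 6 naphthalene libraries of day 2 have sums of 498 or more and Timp1 of 7.496 CPM or more.

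Timp2, the most abundant inhibitor, did not pass after naphthalene. Its log2 change was -0.01 ± 0.19 at day 2, 0.47 ± 0.19 at day 5 (adjusted p = 0.113) and 0.02 ± 0.20 at day 7. At day 5, naphthalene libraries had 457 to 938 CPM and untreated ones 349 to 680 CPM, with 5 of 6 naphthalene libraries above the highest untreated one. In untreated lungs Timp2 rose from day 5 (383, 349 and 680 CPM in control, 659, 487 and 665 CPM in KO) to day 7 (803, 883 and 1005 CPM in control, 609, 682 and 816 CPM in KO). The ranges overlapped, and the log2 change was 0.57 ± 0.19 (adjusted p = 0.0283).

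Timp3 binds to the matrix and also inhibits ADAM and ADAMTS proteases. At day 2 the naphthalene libraries had 302, 222 and 284 CPM in control lungs and 241, 345 and 377 CPM in KO lungs. The untreated ones had 218, 266 and 50.7 CPM in control lungs and 162, 125 and 96.7 CPM in KO lungs, so 4 of 6 naphthalene libraries were above all untreated ones. The log2 change was 0.96 ± 0.38 (adjusted p = 0.109). At day 5 it was 1.10 ± 0.38 (adjusted p = 0.0706), with 82.7 to 385 CPM against 31.6 to 253 CPM, and at day 7 it was 0.29 ± 0.40.

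Mmp14, the membrane-anchored protease that cuts fibrillar collagen and activates pro-MMP2, had its highest values in untreated lungs of day 2. These were 140, 214, 171 and 197 CPM in the 4 libraries of letter k and 85.7 and 91.6 CPM in the 2 of letter n. The naphthalene libraries of day 2 had 92.5, 67.3 and 106 CPM in control lungs and 93.2, 98.1 and 107 CPM in KO lungs. Untreated libraries of day 5 had 51.4 to 91.3 CPM and those of day 7 had 48.3 to 99.0 CPM. Each of the 4 letter k libraries was above all other untreated libraries, and the 2 of letter n were within the range of the later days. Mmp14 was lower after naphthalene at day 2 by the test over both genotypes, with a log2 change of -0.68 ± 0.19 (adjusted p = 0.0202) and overlapping libraries. In untreated lungs it fell by 0.93 ± 0.19 on the log2 scale from day 2 to day 5 (adjusted p = 0.0172) and by 1.05 ± 0.19 from day 2 to day 7 (adjusted p = 0.000558). The fall to day 5 no longer passed in 6 of 12 fits that left out 1 library: untreated day 2 control replicate 1 or 2, day 2 KO replicate 2 or 3, day 5 control replicate 2 or day 5 KO replicate 3, with changes of -0.75 to -0.94 and adjusted p of 0.0517 to 0.114. The fall to day 7 passed in all 12.

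These calls ended when the 4 letter k libraries were left out, a choice made after the data were seen. The naphthalene effect of day 2 became 0.12, the untreated change to day 5 became -0.16 and that to day 7 became -0.27. Those 4 libraries held the highest untreated values of Mmp14, so leaving them out had to shrink the falls. It also left 1 library in each untreated group of day 2, and the part of the letter was not tested. Without letters n, o and i the same 3 changes were -0.94, -1.31 and -1.33, with adjusted p from 9.78e-06 to 0.000281. The letters k and n both occur in control and in KO lungs of untreated day 2. The naphthalene effect over both genotypes was also lost, each time, without replicate 2 of the control naphthalene lungs, replicate 2 of the untreated control lungs or replicate 2 or 3 of the untreated KO lungs, with changes of -0.59, -0.48, -0.63 and -0.56. At day 5 the naphthalene libraries had 82.3 to 134 CPM, with 4 of 6 above the highest untreated library, and a log2 change of 0.42 ± 0.19 (adjusted p = 0.161). The day 5 effect exceeded the day 2 effect by 1.09 ± 0.27 (adjusted p = 0.0498). That difference no longer passed in 16 of the 24 fits that left out 1 library, where it was 0.90 to 1.12 with adjusted p of 0.0561 to 0.117, and it was 0.31 (adjusted p = 1.0) without letter k.

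Mmp2 had wide groups at every day label. At day 5 the naphthalene libraries had 125, 148 and 119 CPM in control lungs and 53.1, 200.2 and 111 CPM in KO lungs, and the untreated ones had 17.9, 31.8 and 77.6 CPM in control lungs and 108, 41.2 and 84.7 CPM in KO lungs. The control groups did not overlap and the KO groups did. The log2 change was 1.62 ± 0.54 in control lungs (adjusted p = 0.088), 0.64 ± 0.53 in KO lungs (adjusted p = 0.61) and 1.13 ± 0.38 over both genotypes (adjusted p = 0.0652). The difference between genotypes at day 5 was tested by edgeR and did not pass (-0.97 ± 0.75, adjusted p = 0.698). The day 2 change was -0.43 ± 0.37, with 39.8 to 138 CPM after naphthalene and 36.1 to 209 CPM in untreated lungs. At day 7 it was 0.09 ± 0.40.

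Mmp15 was lower on average after naphthalene at day 2 (177 ± 26 CPM against 221 ± 91, n = 6 each) and did not pass, with a log2 change of -0.30 ± 0.21 (adjusted p = 0.43). In untreated lungs it rose from day 5 (106, 127.5 and 193 CPM in control, 165, 107 and 217 CPM in KO) to day 7 (259, 232 and 347 CPM in control, 170, 157 and 307 CPM in KO). The log2 change was 0.67 ± 0.21 (adjusted p = 0.0238), with overlapping libraries. The rises of Timp2 and Mmp15 from day 5 to day 7 no longer passed without untreated control replicate 1 or 2 of day 5, KO replicate 2 of day 5, or replicate 3 of either genotype of day 7, with changes of 0.48 to 0.54 for Timp2 and 0.49 to 0.63 for Mmp15 and adjusted p of 0.0627 to 0.12. They compare libraries of letters f and o with letter p.

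Mmp3 was highest in control lungs at day 5 after naphthalene, with 10.8, 7.95 and 12.2 CPM against 4.80, 3.94 and 6.56 CPM in untreated control lungs. In KO lungs it had 4.28, 5.90 and 10.8 CPM against 6.24, 3.30 and 6.78 CPM. The control groups did not overlap and the KO groups did. The log2 change was 1.01 ± 0.39 in control (adjusted p = 0.117), 0.36 ± 0.38 in KO (adjusted p = 0.704) and 0.68 ± 0.27 over both (adjusted p = 0.109). The difference between genotypes was tested and did not pass (-0.65 ± 0.54, adjusted p = 0.723).

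Mmp11, a stromelysin-type protease that furin activates inside the cell, varied least between libraries of a group. It had 72.0 to 88.9 CPM in untreated control and 51.9 to 83.0 CPM in untreated KO lungs of day 2, and 53.3 to 64.1 CPM in untreated lungs of day 7. The log2 change from day 2 to day 7 was -0.37 ± 0.12 (adjusted p = 0.0436). Without the 4 letter k libraries, a choice made after the data were seen, the change was -0.04. Those 4 held the highest untreated values of Mmp11, at 76.6 to 88.9 CPM, so leaving them out had to shrink the fall. The part of the letter was not tested. The fall no longer passed in 9 of the 12 fits that left out 1 compared library, with changes of -0.30 to -0.41 and adjusted p of 0.0594 to 0.126. After naphthalene the changes of Mmp11 were -0.31 ± 0.12 at day 2 (adjusted p = 0.111), 0.01 ± 0.12 at day 5 and 0.03 ± 0.13 at day 7.

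Mmp12 was low throughout, at 2.16 to 8.88 CPM or 30 to 146 reads a library. Its highest value, 8.88 CPM, was in 1 of the 2 KO libraries of day 7 after naphthalene, and the other had 4.04 CPM, against 2.16, 3.38 and 3.33 CPM in untreated KO lungs. In KO lungs the naphthalene effect was -0.54 ± 0.31 at day 2, 0.86 ± 0.32 at day 5 (adjusted p = 0.239) and 1.12 ± 0.35 at day 7 (adjusted p = 0.393). In control lungs it was -0.43 ± 0.31, -0.20 ± 0.32 and -0.33 ± 0.32. The difference between genotypes was 1.06 ± 0.45 at day 5 (adjusted p = 0.544) and 1.45 ± 0.47 at day 7 (adjusted p = 0.969), and neither passed.

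**Figure D3:**
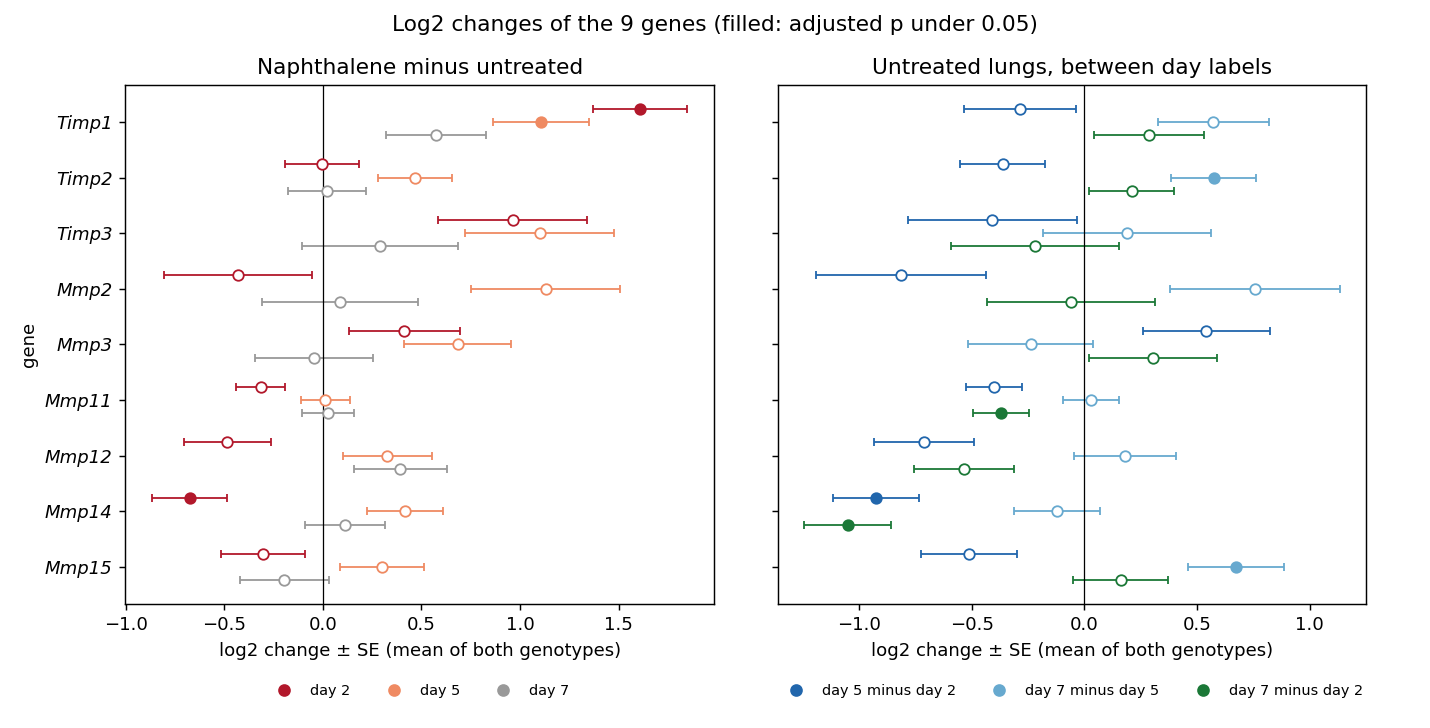
Log2 change ± SE (horizontal axis) of the 9 genes over both genotypes, for naphthalene minus untreated at each day label (left) and between day labels in untreated lungs (right); filled points passed at an adjusted p of 0.05. Timp1 passed at days 2 and 5 after naphthalene, and the calls of Mmp14 all involve untreated lungs of day 2.

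The counts of called members stand here beside the share of all tested genes called. In control lungs at day 2, 1 of 9 passed (Timp1, higher), where 3.76% of all tested genes passed, and in KO lungs 1 of 9 (Timp1) where 2.74% did. Over both genotypes 2 of 9 passed, Timp1 higher and Mmp14 lower, with 9.9% of all genes, and the median log2 change of the 9 was -0.30 against -0.04 for all genes. Without replicate 3 of the untreated control lungs of day 2, the control comparison called Timp1 and Mmp14, and the share of all genes in that fit is not given here.

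At day 5, 0 of 9 passed in control lungs (2.39% of all genes) and DESeq2 called 1, Mmp2 (7.46% of all genes it tested). An unadjusted p under 0.05 was found for 6 of 9, and for 4891 of all 20606 genes. In KO lungs 1 of 9 passed (Timp1; 1.32% of all genes). Over both genotypes 1 of 9 passed (7.16% of all genes), and 6 of 9 had an unadjusted p under 0.05, as did 5437 of all 20606 genes. All 9 log2 changes were above 0 with a median of 0.47, against -0.02 for all genes. The share of all genes with a change above 0 is not given here. The 9 changes are not independent, since several of these genes varied together within groups, as described below. Leaving out single libraries of day 5 raised the count over both genotypes: to 5 without replicate 1 of the KO naphthalene lungs (Timp1, Timp2, Timp3, Mmp2 and Mmp3), to 4 without replicate 3 of the untreated control lungs (Timp1, Timp2, Timp3 and Mmp2) and to 2 without replicate 1 of the untreated KO lungs (Timp1 and Timp3). Without replicate 3 of the untreated control lungs, 3 of 9 passed in control lungs. The share of all genes that passed in these fits without 1 library is not given here.

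At day 7 none of the 9 passed in control lungs (0.0388% of all genes), KO lungs (0.0728%) or over both (0.374%), with 0, 1 and 1 at an unadjusted p under 0.05 by edgeR and 0 calls by DESeq2. The day 5 effect differed from the day 2 effect for 1 of 9 genes (Mmp14; 0.67% of all genes) and the day 7 effect for 0 of 9 (1.01%), the latter with 3 of 9 at an unadjusted p under 0.05 and 0 called by DESeq2. In untreated lungs 1 of 9 changed from day 2 to day 5 (Mmp14; 0.476% of all genes), 2 from day 5 to day 7 (Timp2 and Mmp15; 21.6%) and 2 from day 2 to day 7 (Mmp11 and Mmp14; 13.8%). These comparisons share untreated libraries with each other and with the naphthalene effects.

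By the edgeR test on filtered genes, genotype made no difference that passed for any of the 9 genes. In each of the 6 combinations of treatment and day label 0 of 9 passed and 0% of all genes did, with an unadjusted p under 0.05 for 1 member in naphthalene lungs of day 7 (Mmp12, 0.80 ± 0.35) and for 0 in the other 5. DESeq2 also called 0 of 9 in each, with 0% to 0.121% of all genes called. With no filter on low counts, 1 of 9 was called for genotype in untreated lungs of day 2 (Mmp2, lower in KO; 0.0533% of all genes). In untreated lungs of day 5, 2 were called (Timp3 and Mmp2, higher in KO; 0.622%). Mmp2 was also called for the genotype difference in the naphthalene effect of day 2 (0.0304%). Its direction was opposite at these days, and its untreated control and KO libraries overlapped. They had 36.1 to 209 and 63.0 to 88.9 CPM at day 2, and 17.9 to 77.6 and 41.2 to 108 CPM at day 5. Averaged over the 6 combinations, KO minus control ranged from -0.23 ± 0.13 for Mmp15 (means of 181.4 CPM in KO and 217.1 CPM in control libraries) to 0.16 ± 0.22 for Timp3, with 0 of 9 and 0% of all genes called. The genotype difference in the naphthalene effect was called for 0 of 9 and 0% of all genes at each day label, with 0, 1 and 1 members at an unadjusted p under 0.05. For Timp1 that difference was 0.04 ± 0.47 at day 2, 0.50 ± 0.49 at day 5 and 0.16 ± 0.51 at day 7. None of these passed by edgeR.

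Within groups, 4 of the 9 genes rose and fell together from library to library. After each group's mean of log2 CPM was taken away, Timp2 and Mmp2 correlated at r = 0.92, Timp2 and Timp3 at 0.89, Timp3 and Mmp2 at 0.88, Mmp2 and Mmp15 at 0.83 and Timp2 and Mmp15 at 0.82 over 35 libraries. Mmp12 correlated at most at 0.29 with any other. The first component of all 20606 genes, treated in the same way, held 20.6% of the variance within groups. Its correlation was 0.93 with Mmp15, 0.88 with Timp2, 0.83 with Mmp2, 0.73 with Timp1, 0.70 with Timp3 and -0.09 with Mmp12, and 38.5% of all genes had a correlation beyond 0.5 in either direction. It also correlated at 0.69 with the library's total count, and at -0.07 and -0.06 with the shares of 45S ribosomal and mitochondrial counts. These correlations are descriptions over libraries that share this axis, and the part of depth in them was not tested.

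**Figure D4:**
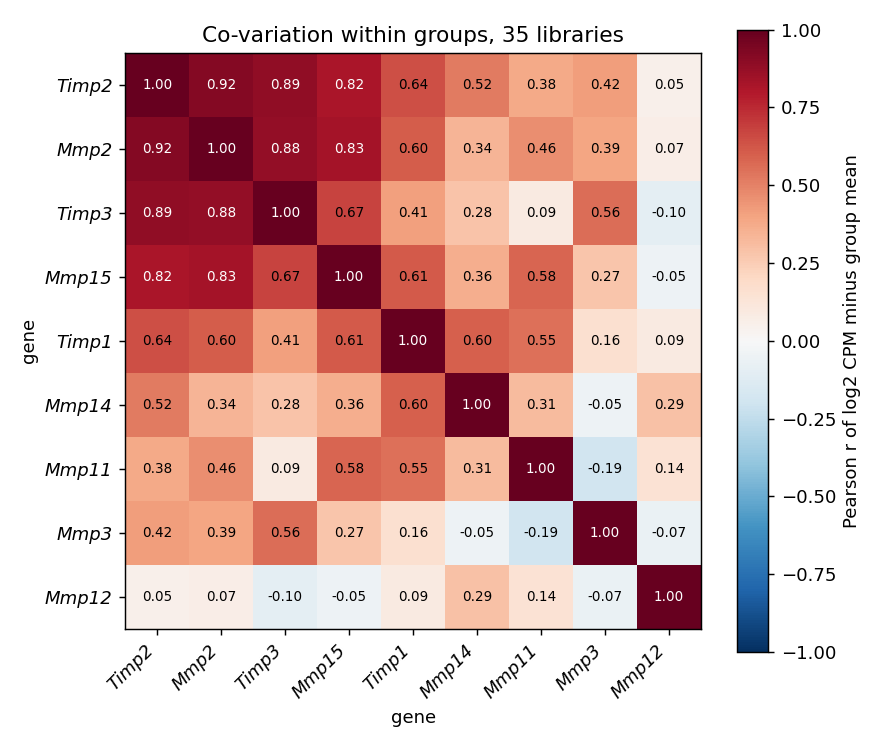
Pearson correlation between the 9 genes (both axes) of log2 CPM after subtraction of the group mean, over 35 libraries. Timp2, Mmp2, Timp3 and Mmp15 form a block of 0.67 to 0.92, and Mmp12 reaches at most 0.29.

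Genes were also ranked by the correlation of log2 CPM with each member over all 35 libraries, among 11626 tested genes whose mean CPM was 5 or more. Nearest to Timp1 were Lgals3 (galectin-3, r = 0.92), Gsto1 (0.90) and Krt19 (a keratin of simple epithelia, 0.90). Nearest to Timp2 were Coro1c, Dag1 and Rab8a, each at 0.96, to Timp3 Glg1 (0.95), Atp1b1 and Ston1 (0.94 each) and to Mmp2 Fmod (0.94), Psmb7 and Nutf2. Mmp15 was nearest to Nacc1 (0.94), Mapkapk2 and St6galnac6 (0.93 each). Mmp14 was nearest to Bend5 (0.77), Prag1 and Mark1, and Prag1 was also among the 3 nearest to Mmp11, after Spry1 (0.82) and Mrgprf. Mmp3 was nearest to Abcc4 (0.73), Spon1 and Entpd1, and Mmp12 to the cell-division genes Ccnb2 (0.63), Cdca3 and Racgap1. The groups, letters and depth are shared by all these points.

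Lists of related genes are given by their counts, beside the 9.9% of all genes called at day 2 and the 7.16% called at day 5 over both genotypes. Of the other matrix metalloproteinases and TIMPs, 11 of 18 had enough reads to be tested. Mmp1a had no read, and Mmp1b, Mmp7, Mmp10 and Mmp20 had 1 to 3 reads over all libraries. At day 2, 2 of 11 rose over both genotypes: Timp4, a further inhibitor, from 2.48 ± 0.81 to 7.37 ± 2.48 CPM (log2 1.52 ± 0.24, adjusted p = 2.78e-05), and Mmp8, the collagenase of neutrophils, from 4.17 ± 2.04 to 17.3 ± 7.6 CPM (log2 2.08 ± 0.35, adjusted p = 8.47e-05). At day 5 Mmp28, an epithelial metalloproteinase, rose from 16.9 to 32.9 CPM (log2 0.98 ± 0.22) and Mmp13, a collagenase, fell from 3.41 to 1.63 CPM. In untreated lungs Mmp28 rose and Mmp13 fell in the same way from day 5 to day 7 (log2 1.00 ± 0.22 and -1.07 ± 0.32). Both changes share the untreated libraries of day 5.

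Among 17 tested ADAMTS proteases, which cut proteoglycans and procollagens, Adamts5 (log2 -0.78 ± 0.19) and Adamts9 (-0.53 ± 0.16) fell at day 2 and none rose, and 2 of 17 is near the 9.9% of all genes. At day 5 Adamts15 (0.64) and Adamts2 (0.66), the latter a procollagen peptidase, rose, and Adamts10 (-0.65) and Adamts1 (-0.78) fell. Of 11 ADAM proteases, which shed cell-surface proteins, Adam8 (1.18 ± 0.18, from 17.7 to 40.1 CPM), Adam23 and Adam28 rose and Adam12 (-1.32 ± 0.20) fell at day 2, and none passed at day 5 by edgeR. In the plasminogen system 1 of 8 rose at each of these days, near the 9.9% and 7.16% of all genes: Serpinb2, an inhibitor of plasminogen activators, at day 2 from 0.18 to 0.63 CPM and Plau, the urokinase that activates plasminogen, at day 5 (log2 0.56 ± 0.16).

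Of 12 tested activators and other inhibitors, Serpina3n, a serine protease inhibitor, rose from 61.9 to 317 CPM at day 2 (log2 2.37 ± 0.26, adjusted p = 1.63e-07) and from 72.5 to 130.4 CPM at day 5 (0.84 ± 0.25). Slpi, an inhibitor of neutrophil elastase, rose at day 2 (0.75 ± 0.20) and Wfdc2 at day 5 (0.69 ± 0.19). A2m, which traps many proteases (-1.85 ± 0.31), and Pi15 (-1.19 ± 0.24) fell at day 2. Among 13 other matrix-degrading enzymes, Prtn3 and the hyaluronidase Hyal1 rose at day 2, and Ctsk (cathepsin K, 0.90 ± 0.16) and Htra1 (0.75 ± 0.21) rose at day 5. Ctsk also stands on the alveolar macrophage list, whose sums were 603 to 1135 CPM after naphthalene and 449 to 554 CPM in untreated lungs of day 5.

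Of 18 matrix substrates and crosslinkers, Dcn (decorin, 0.69 ± 0.14) and Lox (lysyl oxidase, 1.07 ± 0.25, from 137 to 286 CPM) rose and Tnc (tenascin C, -1.42 ± 0.26), Fbln5 (-0.73 ± 0.19) and Col3a1 (-0.77 ± 0.23) fell at day 2. Dcn (0.64 ± 0.14) and Lum (lumican, 0.99 ± 0.18) rose at day 5 and none fell. Tnc had 126 CPM in untreated lungs of day 2 and 74.4 and 73.7 CPM in those of days 5 and 7, the order also seen for Mmp14, and its fall from day 2 to day 7 in untreated lungs passed (-0.77 ± 0.25, adjusted p = 0.0405). At day 7 none of the tested genes of these 7 lists passed after naphthalene by edgeR. The lists were described by their counts alone.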

How the data were processed

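RNA of whole lung homogenate was sequenced from 35 libraries in 12 groups, which were taken from the sample labels. The deposited table holds whole-number read counts per gene, without normalization, as deposited by the authors. The submitters' processing notes name GRCm39 and DESeq2 without a role, while the aligner and the counter were not given in the sources used here. Reads from overlapping or antisense genes cannot be told apart where counting ignored strand, which is not stated.

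The counts were tested with edgeR 4.0.16 (R 4.3.3, limma 3.58.1) by a robust quasi-likelihood fit over all 12 groups, with TMM scaling and edgeR's filter on low counts, which kept 20606 of 57186 genes. P-values were adjusted by the Benjamini-Hochberg method over all genes tested, and a gene passed at an adjusted p of 0.05. Log2 changes carry their SE. CPM used library totals multiplied by the TMM factors (0.863 to 1.09), exon lengths and promoter windows came from annotation of GRCm38, and correlations used log2 CPM with a prior count of 2. The fit was tested on simulated data. Figures were drawn with matplotlib 3.10.9.

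DESeq2 1.42.0, RLE scaling, no filter, a replicate block, the library-name letter as a term, fits of only the compared groups and fits without each library were tried. All 9 genes are named. From the other lists the text names at most 3 called genes per direction with the smallest p, and for each of the 9 the 3 genes of highest correlation. Members and lists were chosen with earlier results of these data known.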

Additional observations from a re-analysis of the deposited data

Results flagged for a closer look

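For Mmp14 the naphthalene effect differed between day 5 and day 2 by a test of the difference itself, at 1.09 ± 0.27 on the log2 scale (adjusted p = 0.0498, edgeR). The effect was -0.68 at day 2 and 0.42 at day 5. Without the 4 untreated libraries of day 2 whose names carry the letter k, the difference was 0.31 (adjusted p = 1.0). Those 4 libraries had 140 to 214 CPM and the 2 other untreated libraries of day 2 had 85.7 and 91.6 CPM. What the letter stands for is not stated, and its part in the result was not tested.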

How the results depend on the processing

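Across 24 comparisons, 332 of 428 alternative counts of called genes among the 9 stayed within 1.5 times the reported count and 96 moved. Of 230 alternative values of single called genes, 158 kept direction and call, 71 kept direction and lost the call and 1 reversed. Timp1 over both genotypes passed at days 2 and 5 in every alternative run. The causes of the changes were not tested.

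With no filter on low counts, the number called after naphthalene was 3 in control and 2 in KO lungs at day 2, and 4 in control, 2 in KO and 6 over both genotypes at day 5. The share of all 39417 genes called in that setting was 2.87% and 2.68% at day 2, and 5.37%, 1.61% and 6.84% at day 5. For genotype the number was then 1 in untreated lungs of day 2 (0.0533% of all genes) and 2 in those of day 5 (0.622%). The genotype difference at day 2 had 1 (0.0304%). The effect of day 5 minus day 2 had 2 (1.76%), and that of day 7 minus day 2 had 2 (1.53%). Untreated day 5 minus day 2 had 3 (1.31%) and untreated day 7 minus day 2 had 1 (7.35%). The name letter could be a term only for n, o and i, which share a group with another letter. No letter of days 2 and 5 occurs in both treated and untreated libraries, so the term does not adjust the naphthalene effect for letter and is close to leaving those libraries out. With it the counts were 3 in control, 2 in KO and 4 over both at day 2, 0 in KO at day 5, 2 and 1 for the effects of days 5 and 7 minus day 2, 2 for untreated day 5 minus day 2 and 0 for day 7 minus day 5. Fits of only the compared groups gave 0 in control and 2 in KO lungs at day 2, 0 in KO lungs at day 5, 0 for the effect of day 5 minus day 2, 0 for untreated day 5 minus day 2 and 1 for day 7 minus day 2, and were not run for the mean genotype effect. DESeq2 called 1 in control lungs (7.46% of all genes it tested) and 3 over both (Timp1, Timp3 and Mmp2; 11.2%) at day 5. RLE scaling gave 1 for untreated day 7 minus day 2.

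2 alternatives were chosen after seeing the data. Without letter k, which leaves 1 library in each untreated group of day 2 that is assumed to vary like the other groups, the counts were 1 over both genotypes at day 2, 0 and 1 for the effects of days 5 and 7 minus day 2 and 0 for untreated day 5 minus day 2, and the Mmp14 effect of day 2 reversed to 0.12. Without letters n, o and i they were 3 in control, 2 in KO and 4 over both at day 2, 0 in KO at day 5, 2 and 1 for the effects of days 5 and 7 minus day 2, 2 for untreated day 5 minus day 2 and 0 for day 7 minus day 5.

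Leaving out 1 library at a time gave 0 to 2 in control lungs and 1 to 3 over both genotypes at day 2. At day 5 it gave 0 to 3 in control lungs, 0 to 1 in KO lungs and 1 to 5 over both. It gave 0 to 2 for the effect of day 5 minus day 2, and in untreated lungs 0 to 2 for day 5 minus day 2, 0 to 3 for day 7 minus day 5 and 1 to 3 for day 7 minus day 2. The share of all genes called is given only for the main, no-filter and DESeq2 runs. Counts from the other alternatives cannot be read against it.

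With the replicate block, Mmp14 lost its call for the effect of day 5 minus day 2 (1.09, adjusted p = 0.0626 by edgeR; 0 called) and Mmp11 for untreated day 7 minus day 2 (-0.37, adjusted p = 0.0538 by edgeR; 1 called), and no other call among the 9 changed. Same-numbered libraries correlated above 0.1 in 9 of 34 pairs (-0.31 to 0.40). Differently numbered pairs were not compared, so this does not decide whether the numbers pair libraries. Depth limits Timp1 and Mmp12 most, with at least 19 and 30 reads a library.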
